A study of Mus musculus with 6 samples.

Results

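Tcf7, Lef1, Bcl6 and Id3 are 4 genes of transcription regulators tied to T cell memory. They were taken by symbol from a deposited table of 6467 genes, and all 4 were found in it. RNA was sequenced from tumour-infiltrating CD8+ T cells of C57/B6J mice of WT genotype that bore tumours of MC38, a colon carcinoma line of the mouse. There were 2 groups of 3 libraries, αPD-1-IL-15-R and PBS. The first agent joins PD-1 blockade to IL-15, a cytokine that sustains memory CD8+ T cells, and the labels give 30 µg of it intraperitoneally on days 14 and 17, with tumours collected 48 h after the last dose. No library had anti-PD-1 or IL-15 alone, the labels give no age, and they do not say whether a library is 1 mouse or a pool, so the p-values cover spread among libraries, part of which may be technical.

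TCF-1, the protein of Tcf7, and LEF-1, the protein of Lef1, are related HMG-box factors that bind the same DNA element and can work with β-catenin or with repressors of the TLE (Groucho) family. In CD8+ T cells both are high in naive, memory and stem-like cells and lower in effector cells. BCL6 is a zinc-finger repressor that opposes Blimp-1 and favours memory and follicular helper fates, and ID3 is an inhibitor that holds E-protein transcription factors off DNA and marks memory precursors. The last 2 are not T cell genes alone: Bcl6 is also known from B cells and macrophages, and Id3 from macrophages, fibroblasts and endothelium.

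With the authors' scaling Tcf7 and Lef1 rose in the treated libraries and Bcl6 fell, with Tcf7 at -0.31 (SE 0.35) and no longer called when libraries were scaled on T cell receptor signalling genes, while Id3 was lower without passing the test used here. Relative to Cd8b1, a chain of the marker used for sorting, no difference in Tcf7 was detectable and Lef1 was higher by a smaller amount. Bcl6 and Id3 were lower by a larger amount. Cd8b1 was itself higher in the treated libraries, at a log2 change of 0.98 in the authors' deposited table (q = 0.039). The T cell receptor genes used for scaling were higher too, and dividing by either lowers the change of every gene. The table holds genes with a deposited q-value below 0.05 for this same comparison, 37.9% of the 17077 genes the authors tested, so each of the 4 had already passed that threshold and no p-value below is independent of it. In the authors' deposited table, the log2 changes were 1.14 for Tcf7 (q = 4.78e-09), 1.85 for Lef1 (q = 4.73e-08), -1.5 for Bcl6 (q = 5.89e-15) and -1.29 for Id3 (q = 0.0137).

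Markers of other cell kinds also differed between the groups. Among the 6467 deposited genes, 57.7% were lower, and edgeR called 15.9% higher and 20.0% lower. Counts of higher, lower and called genes in this paragraph are to be read against these shares. The table's genes held between 8886351 and 9403710 reads in the treated libraries and between 8484736 and 9248214 in PBS. The 10 dendritic cell marker genes present, of 11 listed, summed to between 269 and 693 TPM (a length-corrected abundance scaled to the same total in each library) in the treated libraries and between 2624 and 3480 TPM in PBS, and all 10 were called lower. Of 15 macrophage and monocyte markers, 13 were lower, and without Ly6c2 and Ccr2, which T cells also express, these summed to between 393 and 1256 TPM in treated and between 3468 and 4778 TPM in PBS libraries. The 9 fibroblast markers present other than Thy1, a T cell gene in mice, summed to between 12.6 and 112 TPM in treated and between 387 and 672 TPM in PBS libraries, and the 8 endothelial markers to between 1.9 and 3.4 TPM in treated and between 10.1 and 17.4 TPM in PBS. Of all the markers in the table, Cd209a and Lum were listed at 0 in a treated library and none in a PBS library, and treated library 1 had the highest sums for dendritic, macrophage and fibroblast markers among the treated. The sorted identity was present throughout, with Cd8b1 at 822, 1024 and 870 TPM in treated libraries 1 to 3 and 315, 892 and 518 TPM in PBS libraries 1 to 3, but Cd8a and Cd3e are outside the table. The 24 T cell receptor signalling genes present, of 33 listed, were all higher, at a median log2 change of 1.26, with 3 called. These were Txk, a kinase of the receptor pathway, Sit1 and Skap1, which encode adaptors, at 2.37 (SE 0.46), 1.71 (SE 0.33) and 1.61 (SE 0.34). Of 11 natural killer cell markers, 10 were in the table, 7 higher and 3 lower, and they summed to between 1963 and 3112 TPM in treated and between 681 and 1104 TPM in PBS libraries. Most of that difference was Gzma, a granzyme gene that CD8+ T cells also express, and without it the sums overlapped, at 755, 761 and 731 TPM in treated libraries 1 to 3 and 594, 828 and 790 TPM in PBS libraries 1 to 3. Without Prf1 and Eomes as well, also T cell genes, they were between 392 and 441 TPM in treated and between 503 and 654 TPM in PBS libraries, both sums being chosen after the data were seen. Lists for B cells, helper and regulatory T cells, neutrophils and epithelium had 2 of 10, 2 of 8, 2 of 8 and 1 of 9 genes in the table. The B cell genes summed to at most 2.62 TPM in treated and 15.2 TPM in PBS libraries. Other lists were higher in treated libraries. Helper and regulatory T cell genes summed to between 56.7 and 73.5 TPM in treated and between 15.7 and 46.7 TPM in PBS libraries. Neutrophil genes summed to between 33.9 and 76.7 TPM in treated and between 16.9 and 26.1 TPM in PBS libraries. The epithelial gene overlapped, at 11.9 to 17.0 TPM in treated and 8.3 to 12.5 TPM in PBS libraries. Genes known to respond to cell handling had 10 of 16 in the table, 2 higher and 8 lower, and edgeR called Jund higher at 0.70 and Hspa1b, Jun, Ier3 and Atf3 lower at -2.06, -1.77, -1.42 and -0.81. The part of these genes and cells in the results below was not tested. Fewer cells of a type and less RNA per cell cannot be told apart in such samples.

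The start-site regions of the 4 genes were searched for 3 short motifs on both strands: CTTTGAT, bound by TCF/LEF factors, TTCNNNGAA, bound by STAT factors, through which IL-15 signals, and CANNTG, the E box of E proteins. No match in the windows printed here overlaps another. All 4 genes matched RefSeq windows of 300 bases (250 before and 50 after a start, build GRCm38.p6), 9 windows in all. CTTTGAT was in none of the 9, against 3.73% of 32851 windows of all genes. TTCNNNGAA was in both windows of Bcl6 and in no window of Tcf7, Lef1 or Id3, against 8.30% of all windows. In Bcl6 it occurred at -118 in the window of one start and at -168, -122 and -88 in that of the other, counted from the start to the motif's first base, and BCL6 protein itself is known to bind similar letters. CANNTG was in 7 of the 9, against 72.3% of all windows. The 2 Bcl6 windows are given because they alone hold STAT letters, with the first listed Lef1 window and the Id3 window for contrast, 5′ to 3′ on the gene's strand, capitals marking every match to the 3 motifs; a match is a description of letters and not a measured site.
Bcl6, chr16:23988803-23989102, minus strand: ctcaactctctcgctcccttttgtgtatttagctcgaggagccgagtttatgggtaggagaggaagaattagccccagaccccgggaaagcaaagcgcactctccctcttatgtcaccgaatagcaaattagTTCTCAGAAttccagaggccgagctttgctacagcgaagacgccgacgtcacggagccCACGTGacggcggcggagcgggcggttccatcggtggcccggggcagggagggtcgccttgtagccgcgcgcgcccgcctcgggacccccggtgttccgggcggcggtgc
Bcl6, chr16:23981234-23981533, minus strand: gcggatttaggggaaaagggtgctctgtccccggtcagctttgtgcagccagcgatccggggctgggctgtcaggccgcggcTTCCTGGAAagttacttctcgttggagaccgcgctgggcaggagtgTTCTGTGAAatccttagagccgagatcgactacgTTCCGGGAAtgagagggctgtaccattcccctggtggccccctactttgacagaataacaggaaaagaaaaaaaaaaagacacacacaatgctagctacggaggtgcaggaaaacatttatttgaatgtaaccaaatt
Lef1, chr3:131110047-131110346, plus strand: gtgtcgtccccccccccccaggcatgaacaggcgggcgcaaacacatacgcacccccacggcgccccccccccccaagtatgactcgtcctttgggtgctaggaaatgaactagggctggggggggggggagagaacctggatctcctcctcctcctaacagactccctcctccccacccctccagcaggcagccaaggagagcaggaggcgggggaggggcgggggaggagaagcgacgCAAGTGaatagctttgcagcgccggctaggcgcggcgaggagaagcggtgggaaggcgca
Id3, chr4:136143572-136143871, plus strand: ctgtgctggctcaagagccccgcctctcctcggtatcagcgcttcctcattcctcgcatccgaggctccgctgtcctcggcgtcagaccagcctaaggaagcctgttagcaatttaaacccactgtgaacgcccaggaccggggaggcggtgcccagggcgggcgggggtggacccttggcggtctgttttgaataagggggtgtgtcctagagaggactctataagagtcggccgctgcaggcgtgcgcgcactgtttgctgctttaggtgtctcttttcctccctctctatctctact

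Tcf7 had the most RNA of the 4. Its level was 82.1, 65.8 and 74.9 TPM in treated libraries 1 to 3, against 31.0, 45.5 and 42.0 TPM in PBS libraries 1 to 3. On the scale of normalised reads, which are deposited reads divided by the authors' recovered size factors, it had 2889, 2528 and 2822 in treated libraries and 1055, 1437 and 1239 in PBS libraries. Every treated library was above every PBS library, and the spread among replicates was small on both sides. The means were 2746 ± 192 in treated and 1244 ± 191 in PBS libraries (SD, n = 3), a fold of 2.21. The log2 change was 1.14 (SE 0.14), with an adjusted p of 0.040 by edgeR's quasi-likelihood test.

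Lef1 had the largest rise of the 4. It stood at 17.5, 17.2 and 20.95 TPM in treated libraries 1 to 3 and at 3.8, 7.8 and 6.7 TPM in PBS libraries 1 to 3. In normalised reads it had 604, 654 and 761 in treated libraries, against 124, 242 and 195 in PBS libraries. The groups were far apart, with the lowest treated library above the highest PBS library by more than the whole PBS range, and PBS library 1 was the lowest of all. The means were 673 ± 80.0 in treated and 187 ± 59.8 in PBS libraries (SD, n = 3), a fold of 3.60 and a log2 change of 1.85 (SE 0.28, edgeR quasi-likelihood adjusted p = 0.040).

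Bcl6 moved the other way. Its level was 4.1, 3.7 and 3.4 TPM in treated libraries 1 to 3, against 13.8, 12.2 and 17.0 TPM in PBS libraries 1 to 3. Normalised reads were 189, 202 and 178 in treated libraries and 534, 472 and 601 in PBS libraries. The treated libraries lay close together and all below PBS. Treated library 1, which had the highest dendritic and macrophage marker sums of its group, was the highest of the treated in TPM and lay between the other two in normalised reads, and the part of those cells in the level of Bcl6 was not tested. The means were 189.9 ± 12.1 in treated and 536 ± 64.4 in PBS libraries (SD, n = 3), or 2.82-fold lower. On the log2 scale Bcl6 fell by 1.5 (SE 0.15, edgeR quasi-likelihood adjusted p = 0.040).

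Id3 had the fewest reads of the 4. It was counted 41, 22 and 19 times in treated libraries 1 to 3 and 100, 50 and 69 times in PBS libraries 1 to 3, or 4.4, 2.4 and 2.1 TPM in treated and 11.3, 6.2 and 9.1 TPM in PBS. The groups did not overlap, but treated library 1 came near PBS library 2. Means were 28.3 ± 10.7 normalised reads in treated and 69.2 ± 21.9 in PBS libraries (SD, n = 3), and the log2 change of -1.28 (SE 0.41) had an edgeR quasi-likelihood adjusted p of 0.078. With any other library left out in turn, the log2 change was between -1.48 and -1.02, with an edgeR adjusted p between 0.080 and 0.223. Without treated library 1 the log2 change was -1.64 (adjusted p = 0.027 by the same test), in a fit that called 4549 genes, against 2327 with all libraries. That library also had the highest macrophage and fibroblast marker sums among the treated, and the part of those cells in the level of Id3 was not tested.

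**Figure D1:**
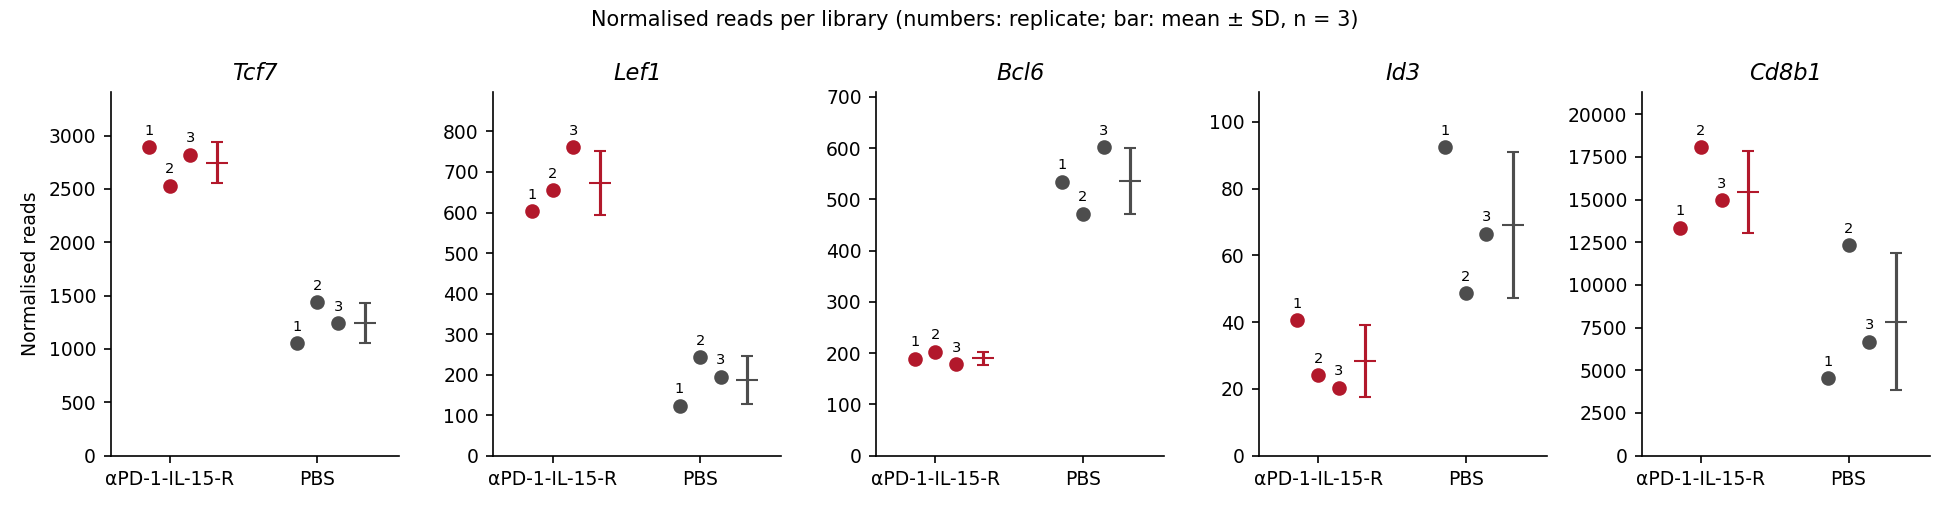
Normalised reads (vertical axis, from 0) of the 4 regulators and of Cd8b1 in each library, αPD-1-IL-15-R in red and PBS in grey, with the replicate number above each point and the mean ± SD (n = 3) beside it. Tcf7 and Lef1 lie higher and Bcl6 and Id3 lower in all 3 treated libraries than in any PBS library, and Cd8b1 runs from 4546 to 12330 among the PBS libraries.

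The groups did not overlap in 99.3% of the table's genes, 42.1% being higher and 57.2% lower, so the lack of overlap tells little about these 4 in particular. The edgeR test called 3 of the 4, against 36.0% of the table's genes, 15.9% being higher and 20.0% lower. These 3 had the same adjusted p of 0.040, which other genes such as Eomes and Zeb2 also had, so it does not rank them. Their unadjusted edgeR p-values were 2.5e-04 for Tcf7, 6.8e-04 for Lef1 and 8.1e-05 for Bcl6. Without treated library 2, treated library 3, PBS library 1 or PBS library 3, edgeR called 0 genes of the table, and the adjusted p of Tcf7, Lef1 and Bcl6 was then between 0.088 and 0.175, with log2 changes between 1.04 and 1.20, between 1.62 and 1.88, and between -1.55 and -1.41. At an unadjusted p under 0.05, edgeR still counted between 4220 and 4884 genes in those 4 fits, and DESeq2 on all libraries called 6351.

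The 4 genes were next set against Cd8b1 in the same library, a ratio that needs no scaling between libraries. Cd8b1 was itself higher in treated libraries (log2 change 0.98 with the authors' factors), so each ratio lies below the gene's own change. Per 1000 Cd8b1 reads, Tcf7 had 216, 140.0 and 189 reads in treated libraries 1 to 3 and 232, 117 and 185 reads in PBS libraries 1 to 3. All treated values lay inside the PBS range, and the log2 ratio differed by 0.06 (SE 0.35; exact permutation test, two-sided p = 0.90, n = 3 each). Both PBS library 2 and treated library 2, the libraries with most Cd8b1 in their groups, had the lowest ratio.

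Lef1 had 45.2, 36.2 and 50.9 reads per 1000 Cd8b1 reads in treated libraries 1 to 3, against 27.2, 19.7 and 29.1 in PBS libraries 1 to 3. All treated values stayed above all PBS values, with a difference of 0.81 on the log2 scale (SE 0.23), or 1.75-fold. The exact permutation p was 0.10 (two-sided, n = 3 each), the smallest this design allows. The groups did not overlap in this ratio in 64.6% of the 6466 other table genes, 6.51% being higher and 58.1% lower.

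Bcl6 had 14.1, 11.2 and 11.9 reads per 1000 Cd8b1 reads in treated libraries 1 to 3 and 118, 38.3 and 90 in PBS libraries 1 to 3. Id3 had 3.03, 1.33 and 1.36 in treated libraries and 20.3, 3.95 and 9.95 in PBS libraries. Both were lower in every treated library, by 2.58 (SE 0.50) for Bcl6 and 2.39 (SE 0.79) for Id3 on the log2 scale. Each had an exact permutation p of 0.10 (two-sided, n = 3 each). In normalised reads Cd8b1 was already higher, and Bcl6 and Id3 lower, in every treated library than in any PBS library. Their ratios to Cd8b1 therefore could not overlap, and the p was set by that and adds no evidence. Of the 6466 table genes other than Cd8b1, 58.1% were also lower without overlap in this ratio. With p-values adjusted over the 4 ratios, Lef1, Bcl6 and Id3 stood at 0.13 (exact permutation tests). The PBS spread was wide, as PBS library 1, which had the fewest Cd8b1 reads, gave the highest ratio for both genes.

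**Figure D2:**
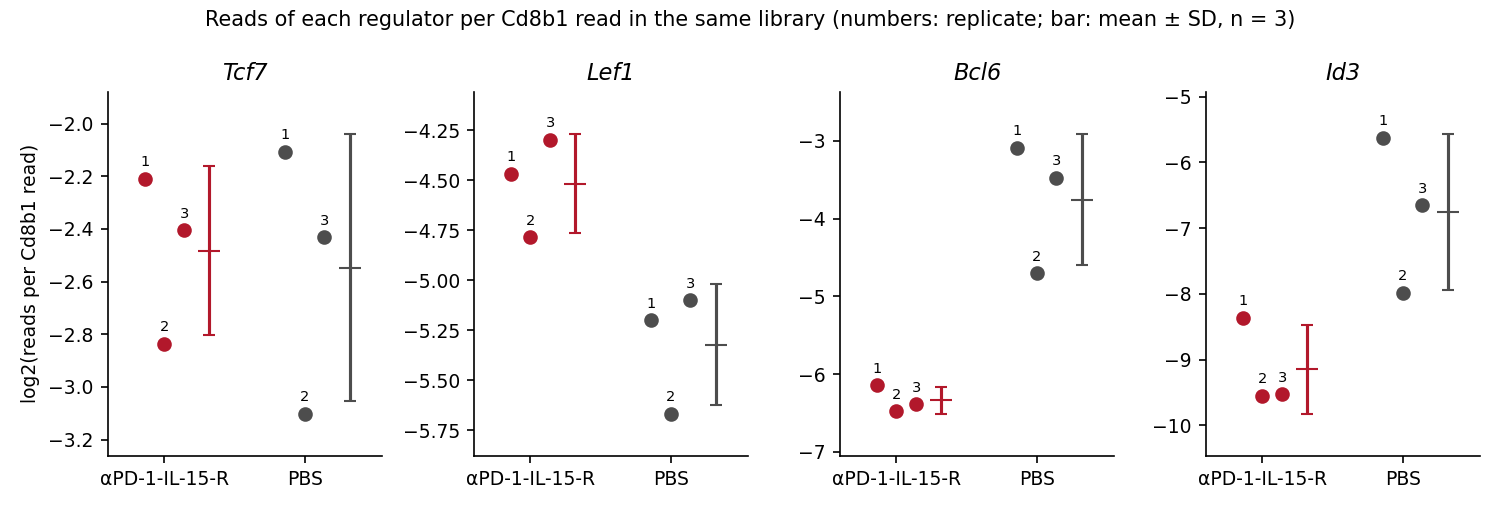
The log2 of reads per Cd8b1 read (vertical axis) for each regulator, by library, αPD-1-IL-15-R in red and PBS in grey, with replicate numbers and the mean ± SD (n = 3). The treated values of Tcf7 lie within the PBS range, those of Lef1 above it, and those of Bcl6 and Id3 below it.

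Scaling on the 24 T cell receptor signalling genes gave the same order. These 24 are the listed genes that had passed the authors' threshold, and all were higher. The scaling thus takes a selected rise out of every gene. In the edgeR fit with that scaling, Tcf7 stood at -0.31 (SE 0.35), Lef1 at 0.46 (SE 0.33), Bcl6 at -3.05 (SE 0.51) and Id3 at -2.91 (SE 0.77), and only Bcl6 passed, with an edgeR adjusted p of 0.048. On this scale Tcf7 stood within 1 SE of 0 and the edgeR call for Lef1 ended, which does not show that either was unchanged. The same scaling put the 6320 genes fitted with it at a median of -2.17 (log2), against -0.57 over 6251 genes with the authors' factors. Tcf7 and Lef1 lay above the median under either scaling, and Bcl6 and Id3 below it.

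**Figure D3:**
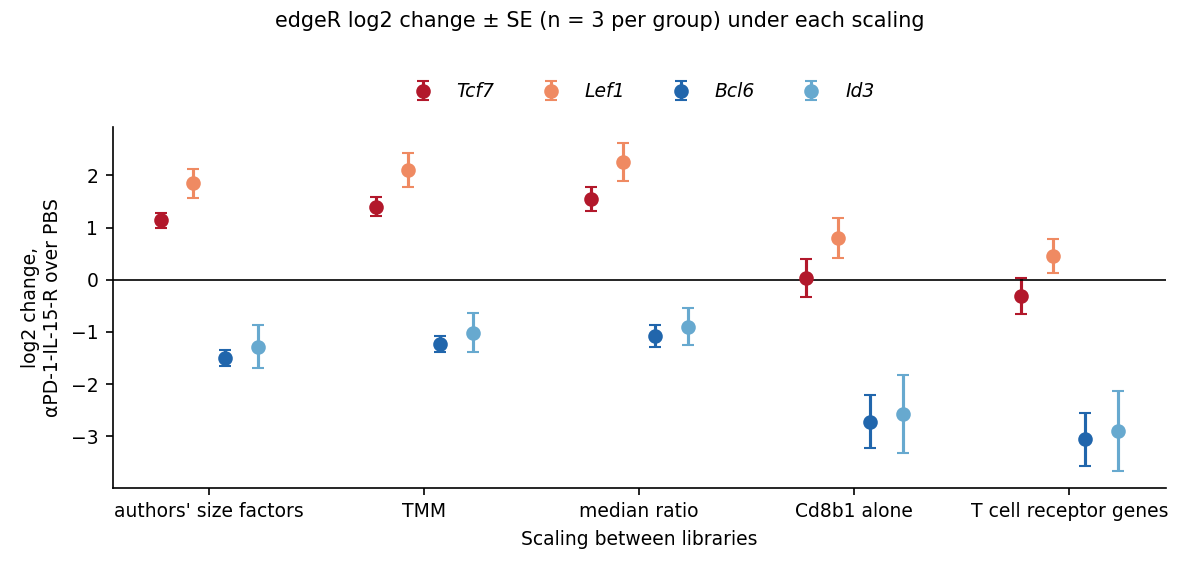
The edgeR log2 change of αPD-1-IL-15-R over PBS with its SE (vertical axis; n = 3 per group) for the 4 regulators under 5 scalings (horizontal axis). Bcl6 and Id3 are below 0 and Lef1 above 0 under each, whereas Tcf7 stands at 0.030 with Cd8b1 alone and at -0.31 with T cell receptor genes.

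Ratios between the regulators compare them within a library, without any scaling. The 6 pairs were tested by exact permutation, and p-values were adjusted over them. Lef1 had 0.21, 0.26 and 0.27 reads per Tcf7 read in treated libraries 1 to 3 and 0.12, 0.17 and 0.16 in PBS libraries 1 to 3. The balance between these related factors was thus further toward Lef1 in each treated library, by 0.74 on the log2 scale (SE 0.20; exact permutation adjusted p = 0.12). Bcl6 had 0.313, 0.309 and 0.235 reads per Lef1 read in treated libraries and 4.32, 1.95 and 3.09 in PBS libraries. This pair was the widest apart: PBS libraries held more Bcl6 than Lef1 reads and treated libraries fewer, a log2 difference of -3.39 (SE 0.36; exact permutation adjusted p = 0.12). Bcl6 over Tcf7, Id3 over Tcf7 and Id3 over Lef1 differed by -2.64 (SE 0.23), -2.46 (SE 0.48) and -3.20 (SE 0.67). All were without overlap and had the same exact permutation adjusted p of 0.12. Tcf7 and Lef1 were already higher, and Bcl6 and Id3 lower, in every treated library. Ratios of Bcl6 or Id3 to Tcf7 or Lef1 therefore could not overlap. Their exact permutation p, the smallest this design allows, was set by that and adds no evidence. Id3 over Bcl6 differed by 0.19 (SE 0.38; exact permutation adjusted p = 0.50), with overlapping groups, so no difference between the falls of these 2 genes was detectable.

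The deposited reads and TPM also bear on which transcripts were counted. Reads divided by TPM is proportional to the transcript length used for a gene, averaged over its transcripts where it has several, and after removal of each library's own constant it was within 1% in every library for 62.0% of 4486 genes at 1 TPM or more. GENCODE release M21 lists 2 coding transcripts of Tcf7, of 1742 and 2471 bases, and 4 of Lef1 between 2298 and 3482 bases. It lists 1 coding transcript each of Bcl6, Id3 and Cd8b1. Bcl6 also has a transcript with a retained intron, of 3933 bases against 3525 for the coding one, and Lef1 and Id3 have further non-coding ones. The authors may have counted against another annotation. For Tcf7 this value was 93.9%, 94.3% and 94.9% of the PBS mean in treated libraries 1 to 3 and 102%, 98.7% and 99.1% in PBS libraries 1 to 3. For Lef1 it was 94.8%, 96.2% and 94.2% in treated libraries, against 99.9%, 100% and 100% in PBS. Reads thus fell on shorter average lengths in all 3 treated libraries for both genes, by 5.6% for Tcf7 and 4.9% for Lef1. For Bcl6 the value was 104%, 112% and 112% in treated and 98.2%, 102% and 99.8% in PBS libraries, which is 9.2% longer, and treated library 1 was the nearest to PBS. Each of these had an exact permutation p of 0.10 (two-sided, n = 3 each). Id3 and Cd8b1 differed by 0.14% and 0.09%, with overlapping groups, and rounding of the deposited TPM moved no value of the 4 by more than 0.24%. The groups were apart beyond rounding in 12.0% of the 4486 genes, and apart with a shift at least as large as that of Tcf7 in 2.34%, of Lef1 in 2.76% and of Bcl6 in 1.47%. This measure was chosen after the data were seen. The part of other cell types in these shifts was not tested.

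**Figure D4:**
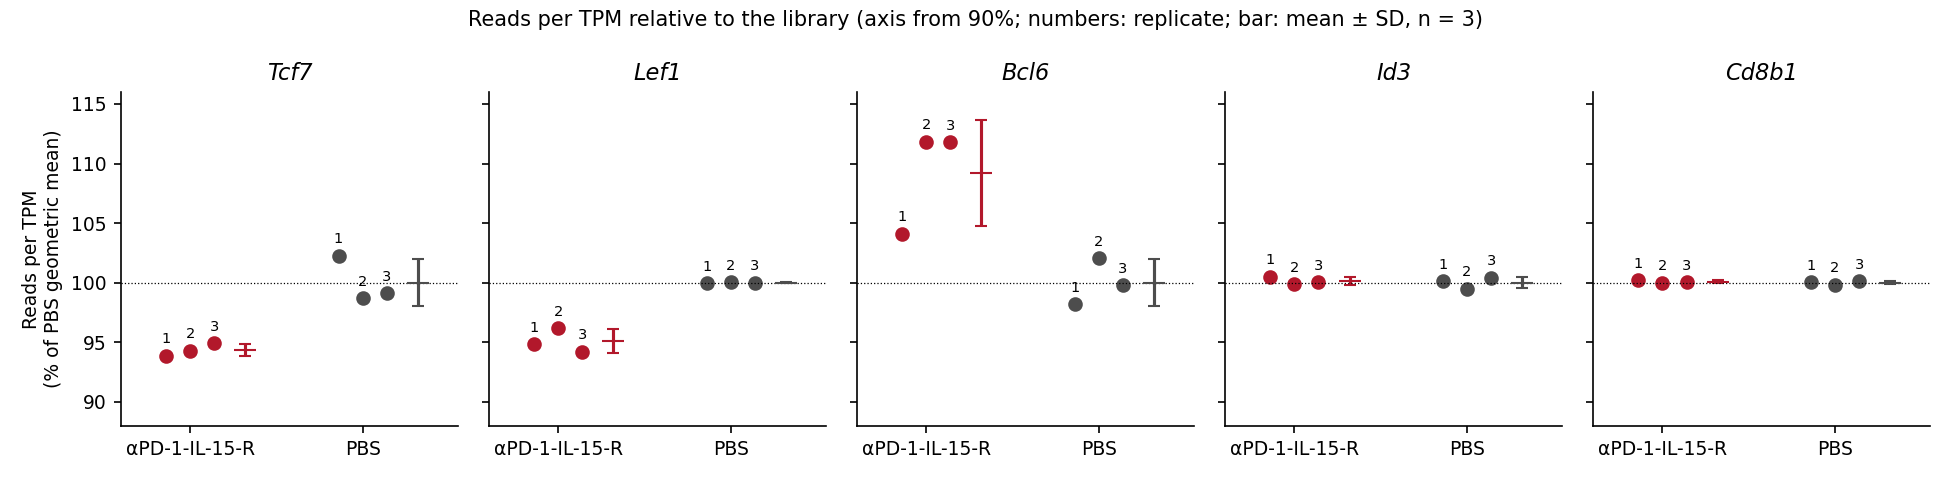
Reads per TPM of each gene relative to its library, as a percentage of the PBS geometric mean (vertical axis from 88%), for αPD-1-IL-15-R in red and PBS in grey, with replicate numbers and the mean ± SD (n = 3). Treated libraries average 94.4% for Tcf7, 95.1% for Lef1 and 109% for Bcl6, while Id3 and Cd8b1 stay at 100%.

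The genes around the 4 were described by lists, in which every member in the table had already passed the authors' threshold. Of all genes in the table, 57.7% were lower, and edgeR called 15.9% higher and 20.0% lower, and each list is to be read against these shares. Of 25 other stem-like and memory genes, 13 were in the table, 9 higher and 4 lower at a median log2 change of 0.96, against -0.62 for the whole table. The edgeR test called 3 higher and 3 lower. Bcl2, a survival gene, rose by 2.15 (SE 0.40) and Myb, a factor of stem-like T cells, by 1.85 (SE 0.38). Klf3 and Klf2, factors of quiescence and trafficking, fell by 1.82 (SE 0.37) and fell by 1.35 (SE 0.28), and Il6ra, a chain of the IL-6 receptor, fell by 1.86 (SE 0.37). The list's median was -0.38 when scaled on T cell receptor signalling genes, with 3 higher and 10 lower. Ccr7, Il7r, Bach2, Slamf6 and Satb1 are outside the table.

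Effector and exhaustion factors, which oppose or replace the memory regulators, had 12 of 26 members in the table, 9 higher and 3 lower at a median of 1.01. The edgeR test called 4 higher, Batf3 at 2.13 (SE 0.37), Eomes at 2.08 (SE 0.30), Batf at 1.30 (SE 0.28) and Nfil3 at 0.72 (SE 0.14), and 3 lower, Runx1 at -1.59 (SE 0.27), Zeb2 at -1.51 (SE 0.20) and Maf at -0.98 (SE 0.23). Eomes, a T-box factor of memory and effector cells, had 1742 ± 195 normalised reads in treated and 411 ± 154 in PBS libraries (SD, n = 3). Scaled on T cell receptor signalling genes, Batf stood at -0.090 (SE 0.34) and Nfil3 at -0.73 (SE 0.34), and the median of the list at -0.32. Prdm1, which encodes Blimp-1, is outside the table, as are Tox and Irf4.

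Partners of TCF-1 and LEF-1 had a median near that of the table, with more of them called lower. Of 42 genes of the Wnt and TCF/LEF list, 25 were in the table, 6 higher and 19 lower at a median of -0.81, and edgeR called 1 higher and 10 lower. The one called higher was Tle5, a short TLE family member that antagonises the repressors, with 11977 ± 1410 normalised reads in treated and 7226 ± 973 in PBS libraries (SD, n = 3) and a log2 change of 0.73 (SE 0.15) that was -0.77 when scaled on T cell receptor signalling genes. Tle6 fell by 2.71 (SE 0.48), the Wnt receptor gene Fzd1 fell by 2.41 (SE 0.56) and the corepressor gene Ctbp2 fell by 2.38 (SE 0.55). Ctnnb1, the gene of β-catenin, stood at -0.76 (SE 0.23, edgeR adjusted p = 0.071). The other TCF genes went opposite to Tcf7 and Lef1 without a call: Tcf7l1 had 25.5 ± 20.7 normalised reads in treated and 153 ± 44.0 in PBS libraries, and Tcf7l2 had 21.2 ± 23.7 in treated and 145 ± 46.2 in PBS (SD, n = 3). Tcf7l2 stood at -2.76 (SE 0.86), and at -4.24 without treated library 1. Scaled on T cell receptor signalling genes, all 25 genes of the list were below 0, as were 93.0% of all genes fitted, and the list's median was -2.42.

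Of 26 partners and relatives of BCL6, 10 were in the table, 4 higher and 6 lower at a median of -0.39, with 1 called higher and 4 lower by edgeR, so that the split by direction was about that of the table. The histone deacetylase gene Hdac9 fell by 2.65 (SE 0.35) and was low throughout, with 3.1 ± 0.9 normalised reads in treated and 20.3 ± 2.5 in PBS libraries (SD, n = 3). Zbtb20, a zinc-finger repressor of the same family as Bcl6, fell by 1.35 (SE 0.23), the corepressor gene Bcorl1 fell by 0.83 (SE 0.18) and Tbl1x, of a corepressor complex, fell by 0.48 (SE 0.11). Hdac4 was called higher at 0.63 (SE 0.15), and at -0.85 when scaled on T cell receptor signalling genes. Bcor and Hdac3, better known corepressors of BCL6, are outside the table.

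The list around Id3 was the lowest. Of 23 Id, E-protein, BMP and TGF-β genes, 15 were in the table, 2 higher and 13 lower at a median of -1.83, and edgeR called 0 higher and 8 lower. At an unadjusted p under 0.05 edgeR had both Id2 and Tgfbr2 higher, and DESeq2 called both. Nearly all genes met these criteria: 6127 of the 6251 fitted by edgeR, and 6351 of the table's 6467 with DESeq2. Within the Id family, Id1 fell by 1.64 (SE 0.36), with 26.3 ± 8.1 normalised reads in treated and 82.4 ± 19.3 in PBS libraries (SD, n = 3). Id2, the Id gene of effector cells, had 9823 ± 1205 in treated and 3764 ± 1922 in PBS libraries (SD, n = 3), or 1.38 on the log2 scale (SE 0.39, adjusted p = 0.063 by edgeR), which was 0.08 when scaled on T cell receptor signalling genes. Tgfbr2, a receptor of TGF-β chosen after its value was seen, stood at 0.90 (SE 0.25). Tcf4, an E protein of B cells and plasmacytoid dendritic cells, fell by 2.09 (SE 0.26), Lyl1, a partner of E proteins in blood progenitors, fell by 2.69 (SE 0.46) and the BMP receptor gene Bmpr2 fell by 2.17 (SE 0.40). Id4 had 4.0 ± 5.2 normalised reads in treated and 24.2 ± 12.1 in PBS libraries, and its log2 change of -2.53 (SE 0.97) was -4.34 without treated library 1. Their changes run with those of the macrophage, dendritic and stromal markers given above, and the part of those cells was not tested.

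**Figure D5:**
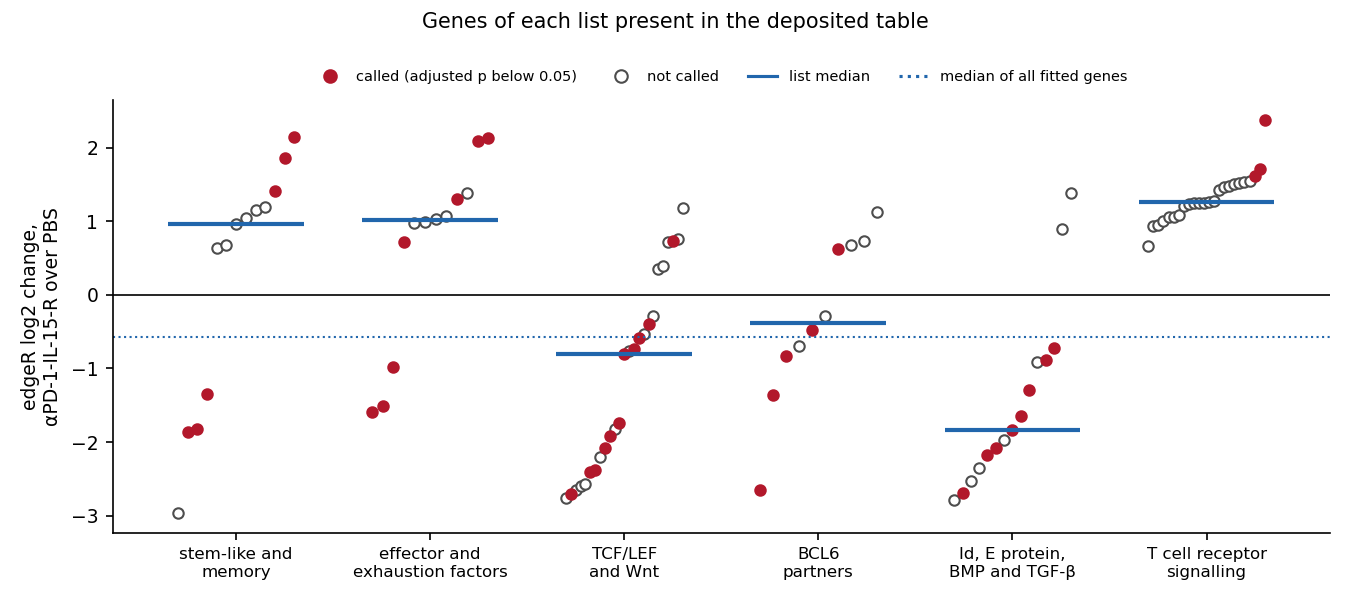
The edgeR log2 change of αPD-1-IL-15-R over PBS (vertical axis) for each gene of 6 lists that is in the deposited table, ordered within its list, with called genes filled in red, the list median as a blue line and the median of all fitted genes, -0.57, dotted. The T cell receptor list lies wholly above 0, the Id, E-protein, BMP and TGF-β list mostly below it, and the memory and effector factor lists on both sides.

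The genes most like each regulator over the 6 libraries were found by Pearson's r of log2 normalised reads, among those with a mean of at least 50. The difference between groups sets most of such an r, and genes compared within a library share its depth and cell makeup, so r is a description. Nearest to Tcf7 were Cndp2, a dipeptidase (r = 0.998), Elovl5, a fatty acid elongase (r = 0.998), and Klra7, a Ly49 receptor (r = 0.998). Klra7 had 741 ± 63.5 normalised reads in treated and 89.5 ± 31.8 in PBS libraries (SD, n = 3), a far larger fold than Tcf7. Nearest to Lef1 were Mfsd13a (r = 0.9995), Gpr18, a lymphocyte receptor of the G protein-coupled kind (r = 0.999), and the RNA-binding protein gene Hnrnpd (r = 0.998). Gpr18 had 1117 ± 121 in treated and 308 ± 102 in PBS libraries (SD, n = 3), at a fold of 3.63. Nearest to Bcl6 were Pign, of GPI anchor synthesis (r = 0.998), Slc25a27, a mitochondrial carrier (r = 0.997), and Myo9a, an unconventional myosin (r = 0.997), and nearest to Id3 were Nradd (r = 0.999), the tetraspanin gene Cd151 (r = 0.999) and Mcfd2, of the secretory pathway (r = 0.998). Among the regulators themselves, r was 0.99 between Tcf7 and Lef1 and 0.87 between Bcl6 and Id3, and it was -0.98 for Tcf7 with Bcl6, -0.96 for Lef1 with Bcl6, -0.94 for Lef1 with Id3 and -0.89 for Tcf7 with Id3. An r above 0.95 was common, being reached by 13.7% of genes with Tcf7, 24.5% with Lef1, 8.12% with Bcl6 and 33.2% with Id3.

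A column of the deposited table marks 34 genes, 9 of them as stem-like, among which are Tcf7, Bcl6 and Id3 but not Lef1. In the authors' deposited table, the other marked stem-like genes were Gzmk at a log2 change of 2.03, Ly6c2 at 1.53, Cxcr4 at 1.49, Cd28 at 1.04, Cxcl10 at -1.58 and Ccr6 at -3.87. Of the 9, 5 were thus higher and 4 lower, whereas of the 24 marked as effector genes 22 were higher and 2 lower. Both counts are to be read against the share over all 6467 genes, of which 42.3% were higher. The column's heading does not say how, or from which samples, the marks were set. Every marked gene in the table had passed the authors' threshold, so the marked genes are not independent of the comparison.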

How the data were processed

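RNA sequencing of 6 libraries was analysed from a deposited table of 6467 genes. Per the file headers, the authors deposited unscaled estimated counts per gene, TPM, FPKM, log10(TPM + 1), a log2 change of drug over control, and p-values and q-values. Per the submitters' processing notes HISAT2 and RSEM were used. Versions, the genome build and the annotation are not given in the sources used here. The deposited q-values all lie below 0.05, and they are the Benjamini-Hochberg values of the p-values over 17077 genes. The authors' size factors were recovered from the deposited log2 changes and counts of 3105 genes with over 200 reads. Estimated counts were rounded and fitted with edgeR 4.0.16 (R 4.3.3; quasi-likelihood, group only, those size factors, low counts filtered), and p-values were adjusted over 17077 genes with a threshold of 0.05. DESeq2 1.42.0 was an alternative. Ratios within libraries were tested with exact permutation tests over all groupings (Python 3.11.15, numpy 2.4.6), whose smallest p for 3 against 3 is 0.10. Named genes were the 3 called genes with the largest change in each list, every called gene of a direction with 5 or fewer, and the 3 most like each regulator (r of log2(normalised reads + 0.5)). A gene that this rule names among the memory genes is not reported here. The other Id and TCF genes, Ctnnb1 and Tgfbr2 were named outside that rule. The regulators and lists were chosen with earlier results of these data known. A second deposited sheet of notes was not used.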

Additional observations from a re-analysis of the deposited data

How the results depend on the processing

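edgeR called 2327 genes as reported, 3944 with median-ratio size factors, 6114 with p-values adjusted over table genes only, and 6351 were called by DESeq2. Scaled on Cd8b1 alone, chosen after seeing the data, edgeR called 0, with 3737 at an unadjusted p under 0.05. Leaving out 1 library gave between 0 and 4549 calls: 4549 without treated library 1, 3018 without PBS library 2, and 0 without any other one. Log2 changes over these fits ran between 1.04 and 1.26 for Tcf7, 1.62 and 2.08 for Lef1, -1.58 and -1.41 for Bcl6, and -1.64 and -1.02 for Id3. Of TMM and the median-ratio scaling, neither turned a direction of the 4 or ended a call. Scaled on T cell receptor signalling genes, the change of Tcf7 was -0.31 (SE 0.35), not called, and Lef1 lost its call at 0.46. Scaled on Cd8b1 alone, Tcf7, Lef1 and Bcl6 lost theirs at 0.030, 0.80 and -2.72. Id3 passed with DESeq2 (-1.29), over table genes only (-1.28) and without treated library 1 (-1.64).

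Per Cd8b1, Tcf7 was -0.28 with T cell receptor signalling genes as the denominator, and ran between -0.21 and 0.28 with 1 library left out. Id3 over Bcl6 ran between -0.11 and 0.42. Id3 reads per TPM ran between -0.13% and 0.33%, and at -0.05% without treated library 1. Scaling on T cell receptor signalling genes, which put 93.0% of genes below 0, also gave values below 0 to Cd8b1 (-0.33), Batf (-0.090), Nfil3 (-0.73), Tle5 (-0.77), Hdac4 (-0.85), Jund (-0.79), Cndp2 (-0.74), Elovl5 (-0.67), Mfsd13a (-0.44), Hnrnpd (-0.93) and Tgfbr2 (-0.50). The cause was not tested.

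Deviations of same-numbered libraries from their group mean correlated at 0.64, 0.68 and -0.35 over 5441 genes. Treated libraries 2 and 3 both correlated best with PBS library 2. Deviations from a mean of 3 libraries are not independent of each other, so these values cannot decide whether the numbers pair the samples. With a replicate block, edgeR called 4337 genes, and the log2 changes were 1.15 for Tcf7, 1.89 for Lef1, -1.49 for Bcl6 and -1.30 for Id3. The 19 to 100 reads of Id3 per library limit its precision.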
